A study of Mus musculus with 4 samples.

Results

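The genes of the Th1 programme were examined in naive helper T cells, before any polarizing culture. The set consists of 10 genes, Tbx21, Stat4, Il12rb1, Il12rb2, Il18r1, Cxcr3, Ccl5, Ifng, Runx3 and Eomes, and takes every probe set that the array annotation assigns to one of these symbols alone. These are 10 of the 18193 genes that some probe set names alone, and 12 of the 45037 probe sets that are not controls, with 1 probe set per gene except for Runx3 and Eomes, which have 2 each. Tbx21, Il12rb1, Cxcr3 and Ccl5 lead the set because their differences between the groups were known from earlier results on the same arrays, so the differences between the groups are given below as a description, with no test.

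The cells were freshly sorted as CD4+, CD62L+ and CD44- from mice of 10 to 11 weeks. All mice carried floxed alleles of Fur, the gene of the proprotein convertase furin (fur flox/flox). The group labelled knockout also carried CD4-cre, a T cell-active Cre recombinase under the CD4 promoter, and the littermates labelled wild type did not. Each group had 2 arrays, numbered 1 and 2, and the small number of arrays, 4, limits all precision. Whether these arrays represent different animals is not stated, and the spread between them may be technical.

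A naive helper T cell becomes a Th1 cell when T cell receptor signals are combined with interferon gamma and interleukin 12. Interferon gamma signalling induces T-bet, the product of Tbx21, which induces the interleukin 12 receptor and Cxcr3 and, together with Runx3, the interferon gamma gene Ifng. Interleukin 12 then acts through Stat4, and interleukin 18 through a receptor that includes the product of Il18r1, to sustain the programme.

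The 2 array numbers differed in both groups, also in control probes, so each difference is also given within arrays numbered 1 and within arrays numbered 2. The bacterial hybridisation controls, which do not come from the cells, were 6.25-fold brighter on array 2 than on array 1 in the wild-type group and 6.09-fold brighter in the knockout group. For Gapdh, the signal at the 3' end over that at the 5' end was 4.09 (wild type) and 3.35 (knockout) on array 1, against 0.905 and 0.934 on array 2. Furin, the targeted gene, had signals of 435.1 and 343.9 on wild-type arrays 1 and 2 and 391.4 and 446.9 on the knockout arrays, so the groups overlapped. Since the deleted segment is not described and may not include the probes, the Furin signal is no check of the group labels. Of the 10 listed markers of naive CD4 T cells 7 had a probe set of their own, among them Cd3e, Cd3d, Cd3g, Cd4 and Ccr7, and all 7 lay above the background level on the 4 arrays.

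Values are MAS5 signals, a linear brightness per probe set. Differences are knockout minus wild type of log2(signal + 15.3), and the added constant makes changes of dim genes look smaller. A probe set was kept in the tests if its mean on this scale exceeded 6.24, the median over all probe sets, and 9 of the 12 Th1 probe sets were kept. Tbx21 and Il12rb1 passed only through the knockout arrays, since their wild-type means of 6.20 and 6.14 lay under that level. Probe sets differ in how brightly they report the same amount of RNA, so signals are compared between arrays and not between genes. Background was set by silent-tissue genes, a list of genes typical of other tissues, such as albumin and the crystallins. Whether T cells transcribe any of them was not tested. Of 35 such genes 32 had a probe set, 54 probe sets in all, and their 95% quantile was 51.6 and 107.3 on wild-type arrays 1 and 2 and 56.9 and 87.4 on knockout arrays 1 and 2.

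Which Th1 genes carried a signal before polarization was read against that level. By the brightest probe set of each gene, 6 of the 10 lay above background on all 4 arrays, namely Stat4, Il18r1, Runx3, Eomes, Cxcr3 and Ccl5. Tbx21 was above it on 3 arrays, Il12rb1 on the 2 knockout arrays, and Ifng on 1, knockout array 1. Il12rb2 was above it on 0 arrays. Of the second probe sets, 1426001_at of Eomes was above it on 3 arrays and 1421467_at of Runx3 on 0. Against the highest of the 54 probe sets, which ran from 140.9 to 247.2 over the arrays, 4 genes remained above on all arrays (Stat4, Il18r1, Runx3 and Eomes), and against the 75% quantile 8 genes did.

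**Figure D1:**
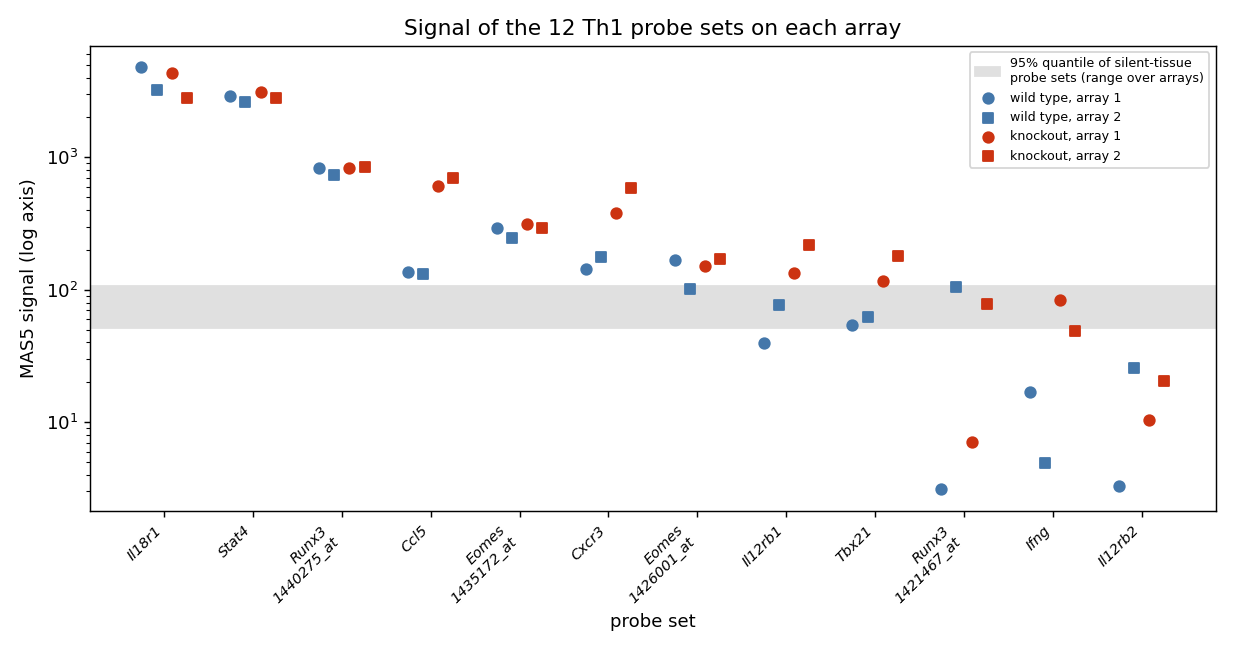
MAS5 signal, on a log axis, of the 12 Th1 probe sets on each of the 4 arrays, ordered by mean log2 value; each point is 1 array, colour shows the group, shape the array number, and the grey band the range over arrays of the background level. Il18r1, Stat4 and Runx3 (1440275_at) lie above the band on every array with the groups close together, Ccl5, Cxcr3, Il12rb1 and Tbx21 are higher on both knockout arrays, and all Il12rb2 points lie below the band.

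Tbx21 encodes T-bet, the T-box transcription factor that directs Th1 differentiation. Its signals were 54.4 and 62.5 on wild-type arrays 1 and 2, and 116 and 179.9 on the knockout arrays. Both knockout arrays thus lay above both wild-type arrays, and the wild-type values lay at about the background level, just over it on array 1 and below it on array 2. The means were 58.4 ± 5.7 (SD, n = 2) in the wild-type and 148 ± 45.2 (SD, n = 2) in the knockout arrays. The log2 difference was 1.12 (SE 0.37), with 0.91 within arrays numbered 1 and 1.33 within those numbered 2, or signal ratios of 2.13 and 2.88.

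Eomes, the related T-box factor of CD8 T cells and NK cells, differed little. Its brighter probe set (1435172_at) was at 290.5 and 244.8 in the wild-type and 312.4 and 291.1 in the knockout arrays. The groups did not overlap, but the highest wild-type and the lowest knockout value nearly met, and the log2 difference was 0.17 (SE 0.33; 0.10 and 0.24 within the numbers). The second probe set (1426001_at) had opposite signs within the numbers, -0.14 and 0.67.

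Runx3 encodes the Runt-domain factor that acts with T-bet at Ifng and silences Cd4 in the CD8 lineage. Its brighter probe set (1440275_at) was at 823.1 and 740.6 in the wild-type arrays and 826.6 and 844.7 in the knockout arrays. All 4 values lay above background, the groups separated by only a few signal units, and the log2 difference was 0.10 (SE 0.32; 0.01 and 0.19 within the numbers). The other Runx3 probe set (1421467_at) followed the array number instead, with 3.1 and 105.6 in the wild-type and 7.1 and 78.6 in the knockout arrays, and was not kept.

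Stat4, which carries the interleukin 12 signal to the nucleus, was bright in both groups. It was at 2909.4 and 2620.6 in the wild-type and at 3112.8 and 2806.2 in the knockout arrays, so the groups overlapped. The log2 difference was 0.10 (SE 0.32), the same to 2 decimals within each array number.

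Among the receptors, the chain that interleukin 12 shares with interleukin 23 was higher in the knockout arrays, while the chain that completes the interleukin 12 receptor stayed under background. Il12rb1 was at 39.4 and 76.2 on wild-type arrays 1 and 2, and at 134.6 and 217.8 on the knockout arrays. The groups did not overlap, and the background level fell between them on both array numbers. Its means were 57.8 ± 26.0 (SD, n = 2) and 176.2 ± 58.8 (SD, n = 2). The log2 difference was 1.40 (SE 0.45), with 1.45 within arrays numbered 1 and 1.35 within those numbered 2.

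Il12rb2, whose product is the signalling chain and whose induction marks commitment to Th1, was at 3.3 and 25.7 in the wild-type and 10.3 and 20.3 in the knockout arrays. These values were below background on every array and differed in opposite directions within the numbers, by 0.46 and -0.20. A difference was therefore not detectable at these signals. Il18r1, the ligand-binding chain of the interleukin 18 receptor, was bright, at 4802.7 and 3197.2 in the wild-type and 4300.3 and 2801.1 in the knockout arrays. It was the single member that was lower within both numbers, by -0.16 and -0.19 (difference -0.17, SE 0.42). The groups overlapped, because the array numbers differed by more than the groups did.

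The chemokine receptor and the chemokine of the set showed the clearest separation. Cxcr3, which guides Th1 cells to sites of inflammation, was at 144.1 and 176.6 on wild-type arrays 1 and 2 and at 382 and 587.7 on the knockout arrays. Every one of these values was above background, and the knockout arrays lay above the wild-type arrays without overlap. The means were 160.4 ± 23.0 (SD, n = 2) and 484.8 ± 145.5 (SD, n = 2). The log2 difference was 1.48 (SE 0.38; 1.32 and 1.65 within the numbers), or signal ratios of 2.65 and 3.33.

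Ccl5 encodes the chemokine RANTES, which memory and effector T cells and NK cells express. It was at 136.8 and 132.2 on the wild-type arrays and at 606.3 and 693.7 on the knockout arrays, with means of 134.5 ± 3.3 (SD, n = 2) and 650.0 ± 61.8 (SD, n = 2). The replicates of each group lay close together and the groups far apart. The log2 difference was 2.15 (SE 0.32; 2.03 and 2.27 within the numbers), or signal ratios of 4.43 and 5.25. It was the largest difference in the set with the constant of 15.3, but not with every constant, as the values of Ifng below show.

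Ifng, the signature cytokine of Th1 cells, was at 16.8 and 4.9 in the wild-type arrays and at 83.2 and 48.6 in the knockout arrays. The wild-type values were well under background, and of the knockout values the first was above it and the second was not. The log2 difference was 1.64 (SE 0.45; 1.62 and 1.66 within the numbers), but its size was set largely by the added constant. It was 2.31 with a constant of 4.1, the 10% quantile of all values, against 2.24 for Ccl5, and 0.77 with 66.6, their median. The signal ratios were 4.95 and 9.92, from wild-type signals under background. This probe set was not kept.

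Of the 12 probe sets, 7 had both knockout arrays above both wild-type arrays and 0 had both below. Over all 45037 probe sets these shares were 10.9% above and 10.9% below. Of the 9 kept Th1 probe sets 6 lay above without overlap, where 7.62% of all kept probe sets did, and 0 lay below, where 9.54% did. Of the 8 kept genes 7 were higher within both array numbers and 1, Il18r1, was lower, where 27.7% of the 10211 kept genes were higher and 27.2% lower within both. The separation was narrow for Runx3 and Eomes, and with each array centred on its median these groups overlapped, leaving 5 of the 12 probe sets. In 3 of the 8 kept genes, Ccl5, Cxcr3 and Il12rb1, the difference was above 1 log2 unit within both numbers, where 0.382% of kept genes were, and the unkept Ifng was above it too. The median difference over the 8 kept genes was 0.64 (0.51 and 0.78 within the numbers), and over all kept genes it was 0. Since part of the set was chosen on this contrast, these counts describe it and support nothing further.

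Across all 22518 kept probe sets the limma fit without a block for the array number called 0 in either direction (0% higher and 0% lower) at a Benjamini-Hochberg adjusted p of 0.05, with 145 at an unadjusted p under 0.05. In the plot of differences within each array number, 5 members stand apart from the centre of the cloud and the other 5 do not.

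**Figure D2:**
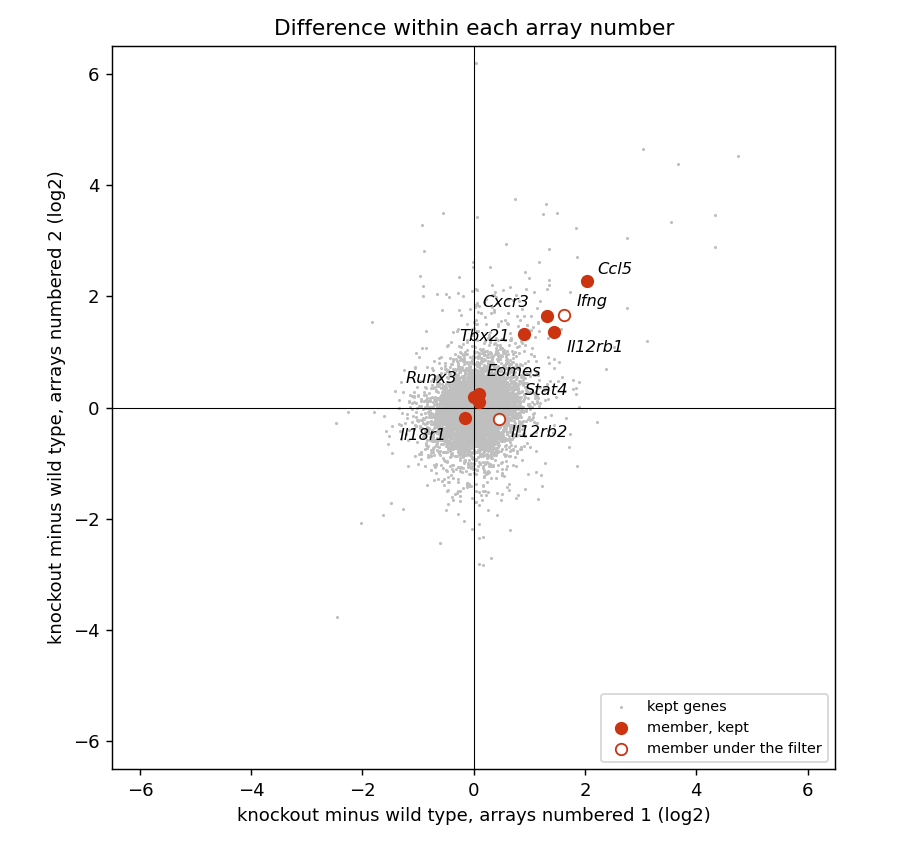
Log2 difference, knockout minus wild type, within arrays numbered 1 (horizontal) and within arrays numbered 2 (vertical); grey points are the 10211 kept genes by their brightest probe set and red points the 10 members, open where the probe set was under the filter. Ccl5 lies at 2.03 and 2.27, Ifng, Cxcr3, Il12rb1 and Tbx21 lie between 0.91 and 1.66 on both axes, and Stat4, Runx3, Eomes, Il18r1 and Il12rb2 lie near the centre of the cloud.

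The array number itself gave a comparison on which the members had not been chosen. In the limma fit with group and array number as terms, 34.6% of the kept probe sets differed between the numbers, 4398 higher and 3393 lower on arrays numbered 2. Among the 9 kept Th1 probe sets 1 differed, Il12rb1, which was higher on arrays numbered 2 by 0.69 (SE 0.19, limma adjusted p = 0.0397) and by 0.74 and 0.64 in the wild-type and knockout groups. Il12rb1 had passed the filter only through the knockout arrays. Its wild-type signals of 39.4 and 76.2 lay under background, which was 51.6 and 107.3 on these arrays. The wild-type value of 0.74 thus compares readings under background. Il18r1 was lower on arrays numbered 2 by -0.60 (SE 0.19, limma adjusted p = 0.0563), with -0.58 and -0.62 in the groups. Ccl5 was at 0.07 (SE 0.19, limma adjusted p = 0.79). With each array centred on its median the split of calls turned to 2624 higher and 6633 lower, and the median kept probe set moved from 0.05 to -0.29. Il12rb1 was then no longer called (0.35, limma adjusted p = 0.212), and neither was it after quantile normalization (0.43, limma adjusted p = 0.153) or with the constant at the median (0.46, limma adjusted p = 0.0595). Il18r1 was called with median centring (-0.94, limma adjusted p = 0.013) and with the constant at the median (-0.59, limma adjusted p = 0.0238).

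Promoter sequences are shown for the 3 members that were higher in the knockout arrays within both numbers, had the largest differences and are in the promoter table. The table, from RefSeq on GRCm38.p6, runs from 250 bases before to 50 bases after each start and holds windows for 8 of the 10 members, all but Ccl5 and Il12rb1. The sequences were searched on both strands for the core of the T-box site (TCACAC), a STAT site (TTCNNNGAA) and an interferon response element (GAAA, any 2 bases, GAAA), and capitals mark a match to any of them. They read 5′ to 3′ along the gene, for Ifng at chr10:118440796-118441095 (plus strand), for Cxcr3 at chrX:101734098-101734397 (minus strand) and for Tbx21 at chr11:97115282-97115581 (minus strand).
Ifng: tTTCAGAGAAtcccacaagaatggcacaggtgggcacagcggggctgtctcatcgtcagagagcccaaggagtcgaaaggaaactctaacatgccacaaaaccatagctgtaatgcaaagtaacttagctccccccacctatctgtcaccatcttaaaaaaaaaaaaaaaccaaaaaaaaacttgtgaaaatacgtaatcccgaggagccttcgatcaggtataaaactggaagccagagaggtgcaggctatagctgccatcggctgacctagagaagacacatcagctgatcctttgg
Cxcr3: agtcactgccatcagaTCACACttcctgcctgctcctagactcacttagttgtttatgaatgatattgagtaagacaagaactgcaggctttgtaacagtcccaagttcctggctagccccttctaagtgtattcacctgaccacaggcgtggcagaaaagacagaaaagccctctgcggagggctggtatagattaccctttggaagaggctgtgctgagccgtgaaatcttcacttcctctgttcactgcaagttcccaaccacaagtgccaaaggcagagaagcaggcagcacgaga
Tbx21: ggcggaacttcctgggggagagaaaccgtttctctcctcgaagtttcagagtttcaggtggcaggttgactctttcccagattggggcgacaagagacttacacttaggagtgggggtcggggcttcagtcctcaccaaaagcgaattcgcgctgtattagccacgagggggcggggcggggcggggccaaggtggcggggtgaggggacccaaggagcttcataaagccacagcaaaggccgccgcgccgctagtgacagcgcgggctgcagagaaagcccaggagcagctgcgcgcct

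The Ifng window held 1 match, to the STAT motif, that begins at position -249 from the start. The Cxcr3 window also held 1 match, to the T-box core, at position -234, and the Tbx21 window held 0 matches. No match overlapped another motif in these windows. Over all 32851 windows, 14.5% held the T-box core, 8.30% the STAT motif and 3.44% the interferon response element, so single matches of this kind are common. Among members with small differences, Il12rb2 had a T-box core at position -80 and a STAT motif at position -123, and Eomes an interferon response element at position -154. One of the Stat4 windows held an interferon response element at position -97, and one of the Il18r1 windows STAT motifs at positions -219 and -152. A match is a stretch of letters and not a site shown to be bound.

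The signalling genes downstream of interferon gamma and of the interleukin 12 receptor were read from a list of 15, of which 14 were kept. None was called in either direction by limma over all kept probe sets, 7 were higher and 1 was lower within both array numbers, and the median difference was 0.25 (0.19 and 0.24 within the numbers). Over all kept genes, for this list and those below, 27.7% were higher and 27.2% lower within both numbers. Irf8, an interferon-induced transcription factor that is also strongly expressed by myeloid and B cells, was at 173.5 and 129.6 in the wild-type and at 382.7 and 598.3 in the knockout arrays, with a difference of 1.58 (SE 0.39). Socs3, a feedback inhibitor of JAK-STAT signalling, differed by 1.13 (SE 0.35; 0.79 and 1.47 within the numbers). Irf1, an interferon-induced transcription factor, differed by 0.54 (SE 0.35; 0.32 and 0.77). For these 3 genes the knockout arrays lay above the wild-type arrays without overlap. Of the 14 genes 4, among them Ifngr1, lay above in this way (28.6%) and 0 lay below. Over all 18193 genes, by the brightest probe set, 11.1% lay above and 9.5% below, and the count is read no further.

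Ifngr1, the ligand-binding chain of the interferon gamma receptor, also did not overlap, with 1882.5 and 1540.9 in the wild-type and 2498.1 and 2381.6 in the knockout arrays (difference 0.51, SE 0.33). Ifngr2, the signalling chain, differed by 0.01 (SE 0.73; -0.05 and 0.07). Its signals followed the array number, with 218.1 and 590.7 in the wild-type and 209.4 and 618.8 in the knockout arrays. The kinase genes of the same list, Jak1, Jak2 and Tyk2, differed little, at -0.11, 0.25 and -0.10. These 3 were named after their values were seen.

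Of the 10 interleukin 12, 18 and 27 ligands and other receptor chains 8 had a probe set and 4 were kept. limma called 0 of the 4, with 2 higher and 1 lower within both numbers and a median of 0.13. Il18bp, the decoy that binds interleukin 18, was at 90.4 and 71 in the wild-type and 114.8 and 179.8 in the knockout arrays (difference 0.74, SE 0.38; 0.30 and 1.18). Il18rap, the signalling partner of Il18r1, differed by -0.19 (SE 0.34), Il27ra by 0.15 (SE 0.37) and Ebi3 by 0.11 (SE 0.45; 0.50 and -0.27). Il18rap was near background, at 85.7 and 113.1 in the wild-type and 81.5 and 87.5 in the knockout arrays. Its small difference therefore says little about the partner chain.

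A list of 14 genes was drawn up as partners and restraints of Th1 transcription, and not all of them are transcription factors. Of the 14 genes 9 were kept, 0 were called by limma, 1 was higher and 4 were lower within both numbers, and the median was 0. Id2, an inhibitor of E proteins, was at 1134.3 and 1523 in the wild-type and 2048.7 and 1844.3 in the knockout arrays, without overlap (difference 0.56, SE 0.35; 0.84 and 0.27). Runx1, a relative of Runx3, differed by -0.36 (SE 0.80) and Cbfb, the common partner of the Runx factors, by -0.25 (SE 0.38), with overlapping groups for both. Ets1, a cofactor of T-bet, differed by -0.17 (SE 0.47).

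Most other effector and homing genes of Th1 cells overlapped between the groups. Of 17 listed genes 15 had a probe set and 8 were kept, 0 were called by limma, 3 were higher and 2 lower within both numbers, and the median was 0.02. Fasl, the death ligand, differed by -0.53 (SE 0.50; -0.45 and -0.61) and Il2rb, a receptor chain for interleukins 2 and 15, by 0.29 (SE 0.66; 0.11 and 0.47). Slamf1 differed by 0.25 (SE 0.33) and Cxcr6, another chemokine receptor, by -0.11 (SE 0.35). Of the 15 genes 3, Slamf1 and the unkept Gzmb and Xcl1, had both knockout arrays above both wild-type arrays (0.86 for Gzmb, 0.88 for Xcl1) and 0 had both below. Over all 18193 genes, by the brightest probe set, 11.1% lay above and 9.5% below, and so small a count is read no further. Of the 15, 7 were above background on all 4 arrays and 5 on none.

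Ligands of Cxcr3 and receptors of Ccl5 were mostly dim. Of the 8 listed genes 6 were above background on 0 arrays, and 1, Ackr1, was kept, with a difference of -0.40 (SE 0.51; 0 and -0.80). The ligands Cxcl9, Cxcl10 and Cxcl11 were below background on every array, with the highest signal at 48.5, and so were the receptors Ccr1 and Ccr3.

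Regulators of the other helper lineages were set beside the Th1 genes. Of 12 Th2 genes 5 were kept and limma called 0, with 3 higher and 1 lower within both numbers and a median of 0.08. Gata3, the factor that directs Th2 differentiation, was at 962.5 and 1113.7 in the wild-type and 853.3 and 1004.9 in the knockout arrays (difference -0.16, SE 0.33). Gfi1, a repressor active in Th2 cells, differed by 0.53 (SE 0.37; 0.38 and 0.68), without overlap, Maf by 0.50 (SE 0.51; 0.32 and 0.69) and Stat6, which carries the interleukin 4 signal, by 0.08 (SE 0.33). Gata3 was thus bright and close between the groups.

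Among Th17 genes 5 of 11 were kept and limma called 0, with 2 higher and 2 lower within both numbers and a median of -0.09. Irf4 differed by 0.93 (SE 0.45; 0.78 and 1.08), without overlap, and Batf by 0.73 (SE 0.55; 0.88 and 0.57). Both are transcription factors that antigen receptor signals induce in every helper lineage. Rora and Ccr6, which are closer to the Th17 fate, differed by -0.35 (SE 0.55) and -0.34 (SE 0.40). Of 10 follicular helper and regulatory T cell genes 9 were kept and limma called 0, with 2 higher and 4 lower within both numbers and a median of -0.09. Il2ra, a receptor chain for interleukin 2, was at 544.9 and 598.5 in the wild-type and 361.9 and 491.4 in the knockout arrays (difference -0.42, SE 0.35), below without overlap. Ikzf2 differed by -0.41 (SE 0.40), Foxp3 by -0.24 (SE 0.38), Bcl6 by -0.10 (SE 0.34), Icos by 0.37 (SE 0.77) and Cxcr5 by 0.36 (SE 0.66).

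**Figure D3:**
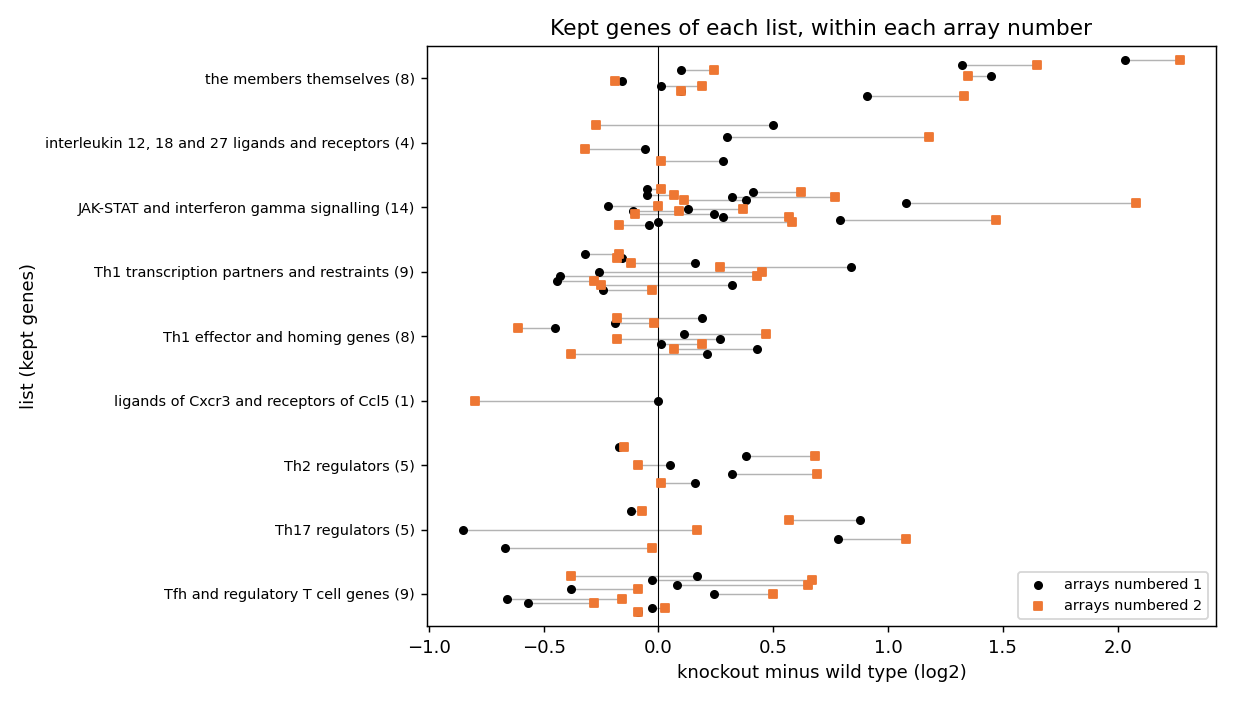
Log2 difference, knockout minus wild type, of every kept gene in 9 groups of genes, within arrays numbered 1 (black circles) and arrays numbered 2 (orange squares); a grey line joins the values of 1 gene and the number of kept genes stands beside each name. The members hold 3 genes with both values over 1, Ccl5, Cxcr3 and Il12rb1, and Tbx21 lies at 0.91 and 1.33. In the other lists Irf8, at 1.08 and 2.08, is the single gene with both values over 1.

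Genes whose level ran most like that of a member over the 4 arrays were found by the Euclidean distance between log2 values, each gene centred on its own mean, among 10210 other kept genes. For Tbx21 the nearest were C130026I21Rik, D830025C05Rik and Mx1, an interferon-induced GTPase, at distances of 0.13, 0.15 and 0.17. For Il12rb1 they were Arhgef40 at 0.13, Cxcr3 at 0.35 and Gh at 0.37, and for Cxcr3 they were C130026I21Rik at 0.28, Gh at 0.30 and Il12rb1 at 0.35. For Ccl5 the nearest lay farther away, Iigp1, an interferon-inducible GTPase, at 0.35, Hspa1b at 0.55 and Irf8 at 0.69. Gh, the growth hormone gene, is one of the silent-tissue genes, and its probe set was at 29.8 and 41.6 in the wild-type and 76.3 and 162.5 in the knockout arrays. Gh passed the filter only through the knockout arrays, and its difference was 1.33. Over all 32 silent-tissue genes, 6 had both knockout arrays above both wild-type arrays and 6 had both below (18.8% each). Of all 18193 genes, by the brightest probe set, 11.1% lay above and 9.5% below. These distances rest on 4 arrays and describe them only.

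Markers of other cells that can hold Th1 transcripts differed between the groups in part. In bulk RNA, more cells of a type and more RNA per cell cannot be told apart. Cd44, the marker excluded by the sort, was at 1126 and 1098.7 in the wild-type and 863.2 and 965.2 in the knockout arrays, lower without overlap (difference -0.28, SE 0.32). The other markers of memory and activated T cells were higher in part. Of the 10 listed, all kept, 6 were higher and 2 lower within both numbers, led by S100a4 at 2.10 (SE 0.79), S100a6 at 1.33 (SE 0.54), Anxa1 at 1.03 (SE 0.67) and Klrg1 at 0.57 (SE 0.35). Their summed signal was 9705 and 15793 in the wild-type and 11094 and 13028 in the knockout arrays, so the groups overlapped. A large part came from Lgals1, at 4567.1 and 10919.2 in the wild-type and 4184.6 and 7065.9 in the knockout arrays (difference -0.38, SE 0.57). Leaving out Lgals1 was a choice made after the values were seen. The remaining sum was 5138 and 4874 in the wild-type and 6910 and 5962 in the knockout arrays, without overlap. A large part of that sum came from Cd69, also named after its values were seen. Cd69 was at 2673 and 2007.8 in the wild-type and 4543.5 and 2188.9 in the knockout arrays, and its groups overlapped. The lack of overlap thus depended on which genes were left out, and no separation is read from it. Itgb1 differed by -0.37 (SE 0.42).

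NK and NKT cells express Ccl5, Tbx21 and Ifng without polarization. Of the 11 markers of these cells 10 had a probe set and 7 were kept, of which 4 were higher and 1 lower within both numbers. The higher ones included Gzma at 1.78 (SE 0.46), Tyrobp at 1.23 (SE 0.57), Nkg7 at 1.22 (SE 0.35) and Fcer1g at 0.96 (SE 1.10). Klrd1 and the perforin gene Prf1, the brightest of the list, differed by -0.03 (SE 0.39) and -0.24 (SE 0.47). Ncr1, which defines NK cells, Klra8 and Klrk1 were below background on every array. The summed signal was 3600 and 2655 in the wild-type and 4069 and 3532 in the knockout arrays, and overlapped. Klrd1 and Prf1 made up most of it, and leaving them out was a choice made after the values were seen. The remaining sum was 583 and 581 in the wild-type and 1139 and 1678 in the knockout arrays, without overlap. Neither gene left out was higher on average in the knockout arrays. The lack of overlap thus follows in part from that choice, and no separation of the list is read from it. The CD8 T cell genes Cd8a and Cd8b1 summed to 378 and 1149 in the wild-type and to 452 and 1099 in the knockout arrays, and differed by -0.26 and 0.17. The part of memory, NK and NKT cells in the Th1 differences was not tested.

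Most kept B cell markers and all kept myeloid markers were higher in the knockout arrays, mainly on those numbered 2. The summed signal of 8 myeloid markers was 1189 and 3762 on wild-type arrays 1 and 2, and 1852 and 13046 on the knockout arrays. Of the 6 kept, all 6 were higher within both numbers, with medians of 1.14 and 2.78, and Ngp, S100a8, S100a9 and Lyz2 differed by 2.53, 2.50, 2.48 and 1.66. Itgam and Cd14 were below background on every array. The 7 B cell markers with a probe set summed to 12134 and 17391 in the wild-type and 10671 and 24086 in the knockout arrays, most of it from Ighm. Ighm differed by -0.10 (-0.22 and 0.02) and Cd22, named after its values were seen, by 0.57 (-0.28 and 1.42). Of the 6 kept, 4 were higher within both numbers, with medians of 0.18 and 1.44, led by Cd74 at 1.54 (0.95 and 2.14), Cd79b at 0.95, Ms4a1 at 0.90 and Cd79a at 0.82. Within arrays numbered 1 and 2, beside these medians, Ccl5 differed by 2.03 and 2.27, Cxcr3 by 1.32 and 1.65, Il12rb1 by 1.45 and 1.35 and Tbx21 by 0.91 and 1.33. The part of B cells and myeloid cells in these differences was not tested.

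**Figure D4:**
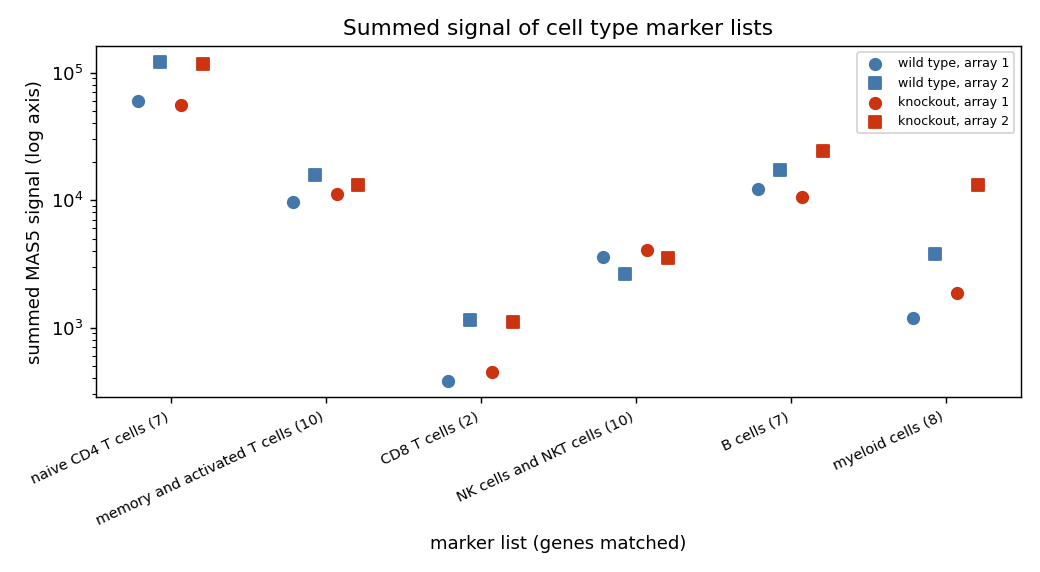
Summed MAS5 signal, on a log axis, of 6 marker lists on each array, with the number of genes that had a probe set beside each name; colour shows the group and shape the array number. The naive T cell markers lie together by array number at 55647 to 60123 and 116314 to 121438, and the myeloid sum is highest on knockout array 2, at 13046.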

How the data were processed

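Expression was measured on 4 Affymetrix arrays, 2 per group. The authors deposited 1 intensity per probe set and array, on a linear scale and produced by MAS5 according to the submitters' processing notes; the MAS5 version is not given in the sources here. Every array had the same mean, 500 to 1 decimal, after trimming 2% of values at each end, so a common scaling had been applied. The table has no detection calls.

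Of 45101 probe sets 64 controls were left out. Of the rest 34945 had 1 gene symbol, 932 several and 9160 none, and names come only from the 34945; 34741 symbols were updated through Entrez identifiers in RefSeq's GRCm38.p6 gene table. Signals were transformed as log2(signal + 15.3), the constant being the 25% quantile. A gene was represented by its probe set with the highest mean, and other probe sets of list genes were not read. The comparison used limma 3.58.1 under R 4.3.3, with lmFit and eBayes, two-sided p-values and Benjamini-Hochberg adjustment over 22518 kept probe sets, and no block; SEs are from this fit, and for probe sets under the filter from the fit on all of them. The fit was tested on simulated data. Arrays of the same number deviated together from their groups (correlation 0.80 across probe sets); the labels state no shared animal or day, and the number is handled here as a technical difference. The members, lists and tests were chosen with earlier results of these data known. The named genes are the 10 members, up to 4 kept genes per list with the largest difference, fixed partners and the nearest patterns; other names are marked. Alternatives covered the constant, filter, scaling, prior, block, threshold, background level, probe-set choice and each array left out.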

Additional observations from a re-analysis of the deposited data

How the results depend on the processing

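The count of 0 called probe sets between the groups stayed at 0 under other constants, filters and scalings, with a trended or robust prior, with an adjusted p under 0.10 and without any 1 array (range 0 to 0). With the replicate block for the array number limma called 6, and with the replicate block and a trended prior 260, so the fit without a block does not show that few genes differ. The count between array numbers, 7791, fell to 0 with no filter and otherwise ran from 6492 to 10627. With probe sets above the 75% quantile of means, 1 Th1 probe set lay above without overlap in place of 7, since most of them are dimmer, and with median centring 5 did. Of 120 member differences under alternatives, 8 moved by more than the SD between replicates and 5 changed sign, all 5 of Il12rb2 or Il18r1, namely Il12rb2 without wild-type replicate 1, or knockout replicate 2, and within arrays numbered 2, and Il18r1 without either of the same arrays (wild-type replicate 1, knockout replicate 2). Without 1 array Tbx21 ranged from 0.83 to 1.41, Il12rb1 from 1.03 to 1.77, Cxcr3 from 1.18 to 1.79, Ccl5 from 2.05 to 2.24 and Ifng from 1.31 to 1.97. With the constant at the median Tbx21 was at 0.76, Il12rb1 at 0.96, Cxcr3 at 1.26 and Ccl5 at 1.83. The block leaves each difference as it is and lowers its SE, for Ccl5 to 0.19. Of 98 kept list genes 6 changed sign with a scaling, of which Ifngr2, at 0.01, 0.04 and 0, is named.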

Other observations

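Of 23 genes in the 5 Th1-related lists that were under the filter, 8 had both knockout arrays above both wild-type arrays and 1 had both below, where 14.3% and 11.4% of the 7982 genes under the filter did. The 8 are Il18, Twist1, Bhlhe40, Tbkbp1, Gzmb, Xcl1, Cxcl10 and Ackr2, and those described next were picked after their values were seen. Bhlhe40, a transcription factor that promotes interferon gamma production, was at 32.9 and 11.9 in the wild-type and 39 and 126.6 in the knockout arrays, and only the last value was above background. Ackr2, a scavenger receptor that binds Ccl5, was at 18 and 35.3 in the wild-type and 53.5 and 98 in the knockout arrays. Tbkbp1, which is not a transcription factor, was at 48.9 and 17.7 in the wild-type and 76.5 and 65.7 in the knockout arrays. Twist1, which T-bet and Stat4 induce in repeatedly activated Th1 cells, was below background on all 4 arrays, with 19.2 as its highest value. Il12b, which encodes a chain of interleukin 12 itself, ran the other way, with 26.8 and 110.6 in the wild-type and 2.9 and 20.9 in the knockout arrays, and was above background on 1 array.

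Separation of the groups also occurred among the silent-tissue genes. Of the 5 kept silent-tissue genes Gh and Pomc, at 1.33 and 0.45, had both knockout arrays above both wild-type arrays, where 7.62% of all kept probe sets did, and 0 had both below. Gh passed the filter only through the knockout arrays, so its place among the 5 depended on its difference. Pomc was above the background level on all 4 arrays, at 140.9 and 168.3 in the wild-type and 189.2 and 247.2 in the knockout arrays. On wild-type array 1 and both knockout arrays it was itself the highest of the silent-tissue probe sets. Over all 32 such genes 6 lay above and 6 below (18.8% each), where 11.1% and 9.5% of all 18193 genes did by their brightest probe set.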
